A study of Mus musculus with 15 samples.

Results

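Sonic hedgehog is received by a small set of proteins, and 9 of their genes were followed here across cerebellar granule neuron precursors and medulloblastoma: the receptor Ptch1, the co-receptors Boc and Cdon, the decoy receptor Hhip, the transducer Smo, the inhibitor Sufu and the transcription factors Gli1, Gli2 and Gli3. The genes were taken by name, and all 9 were found among the 21889 genes of the gene count table. All 9 also passed the filter on low counts, which left 15259 genes in the tests. RNA-seq of poly(A) RNA had been made from 15 mouse libraries, 3 in each of 5 groups. The embryonic group was made of granule neuron precursors at E15.5 with the genotype label Math1-GFP, Math1 being another name of the precursor factor Atoh1. The P1, P7 and P14 groups were labelled wild type granule neuron precursors, so genotype and age cannot be told apart where E15.5 is compared with a later age. The fifth group, MB, held medulloblastoma cells labelled Ptch1 heterozygous, with no age given. All groups came from cerebellum and were enriched by Percoll fractionation, a density separation that does not select by a marker. Whether a library came from 1 animal, 1 tumour or a pool is not stated, so p-values measure the spread between these libraries. The design text gives the aim of the ages as finding genes that increase while the precursors differentiate, and tumours were profiled beside them.

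In cells without ligand, PTCH1 holds the membrane protein SMO inactive, and SUFU keeps the GLI proteins in the cytoplasm and promotes the processing of GLI3, and in part GLI2, into repressors. Binding of hedgehog to PTCH1 together with BOC, CDON or GAS1 releases SMO, and full-length GLI2 then turns on target genes. Gli1, Ptch1 and Hhip are themselves direct targets and are the usual transcript readouts of the pathway. In the postnatal cerebellum Purkinje cells secrete the ligand, granule neuron precursors divide in response to it, and Bergmann glia respond to it as well. Loss of Ptch1 gives medulloblastomas that arise from this lineage.

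The start regions of 3 of these genes are shown because Ptch1 and Hhip rose together after E15.5 while Cdon fell. The Cdon call at P1 was lost in 14 of 25 alternatives. RefSeq promoter entries (build GRCm38.p6) matched 7 of the 9 genes; Gli1 and Boc were not matched. Each sequence is the 250 bases before the annotated start, 5′ to 3′ on the gene's strand, with every CG dinucleotide in capitals. The Ptch1 window lies at chr13:63565736-63565985 on the minus strand, that of Hhip at chr8:80058009-80058258 on the minus strand, and that of Cdon at chr9:35451826-35452075 on the plus strand.
Ptch1: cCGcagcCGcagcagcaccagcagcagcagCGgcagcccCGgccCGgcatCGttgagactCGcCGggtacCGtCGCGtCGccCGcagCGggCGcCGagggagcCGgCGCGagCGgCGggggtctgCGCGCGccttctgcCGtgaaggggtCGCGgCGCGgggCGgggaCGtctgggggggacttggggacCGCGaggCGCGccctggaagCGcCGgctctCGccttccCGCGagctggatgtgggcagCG
Hhip: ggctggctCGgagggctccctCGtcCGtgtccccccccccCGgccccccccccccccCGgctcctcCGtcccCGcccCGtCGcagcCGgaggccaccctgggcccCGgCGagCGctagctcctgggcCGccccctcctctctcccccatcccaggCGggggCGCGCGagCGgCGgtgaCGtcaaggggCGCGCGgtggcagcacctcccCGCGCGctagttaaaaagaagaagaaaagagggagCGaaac
Cdon: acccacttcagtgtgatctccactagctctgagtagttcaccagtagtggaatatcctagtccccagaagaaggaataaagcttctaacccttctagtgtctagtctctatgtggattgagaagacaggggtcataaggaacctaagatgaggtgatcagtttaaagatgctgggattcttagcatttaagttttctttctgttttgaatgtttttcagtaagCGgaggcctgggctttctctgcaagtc
The Ptch1 window holds 41 CG dinucleotides, and only 1.09% of the 32851 promoter windows of this length hold as many or more. Hhip has 28, reached by 7.61% of windows. Cdon has 1, against a median of 6 over all windows, and 92.1% of windows hold at least as many. The authors' start-site counts hold Cdon under a transcript other than that of its gene model, so the start in use may lie elsewhere. Whether the CG count goes with the direction of change was not tested. Among the other matched genes, Gli3 has 34, Gli2 22, Smo 15 and Sufu 8. The Gli consensus GACCACCCA, searched on both strands, occurs in 0.225% of all windows and in 0 of these 7, which says only that these letters are not in these windows.

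The libraries held between 12597472 and 43443132 counts in genes. Values are library-scaled counts (CPM) adjusted by TMM, which corrects for differences in RNA composition, and fold changes are from edgeR's quasi-likelihood test with Benjamini-Hochberg adjustment over 15259 genes (FDR, called under 0.05). The 9 granule lineage markers summed to 3012 to 7596 CPM in each of the 15 libraries, and Gabra6, a late marker, had 0 counts in the E15.5 libraries. Gabra6 was uneven at P1, at 1.12, 12.5 and 102 CPM in replicates 1 to 3, against 2.54 to 10.3 CPM at P7 and 161 to 202 CPM at P14. Choroid plexus markers (5 genes) summed to 298, 10373 and 3909 CPM in the P1 libraries. The part of these differences in the comparisons with P1 was not tested. Markers of other cells were present too. Summed astroglial and Bergmann glial markers (11 genes) were at 413 to 559 CPM at E15.5, 3249 to 4861 at P1, 2495 to 4879 at P7, 4278 to 5610 at P14 and 1912 to 2212 in MB. Endothelial markers (6 genes) were at 11.2 to 30.5, 376 to 567, 285 to 348, 691 to 725 and 17.6 to 31.5 CPM in the same order, and no marker of either list was at 0 in a library. MB replicate 1 stood apart from the other tumours, with 418 CPM of summed microglial markers against 174 and 146, and 44.6% of its records aligned to several places. The 15 libraries also fell into 2 sets by the gene Tsnax. The sets differ in its count in the gene table, taken as a percent of its count in the authors' transcript table. That value was at most 0.273% in one set and at least 92.4% in the other. No label gives the reason. The low-Tsnax set is made up of the P7 group, E15.5 replicates 1 and 3 and the first MB replicate, and the high-Tsnax set of the other libraries. In these bulk libraries fewer cells of a type and less RNA per cell cannot be told apart.

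**Figure D1:**
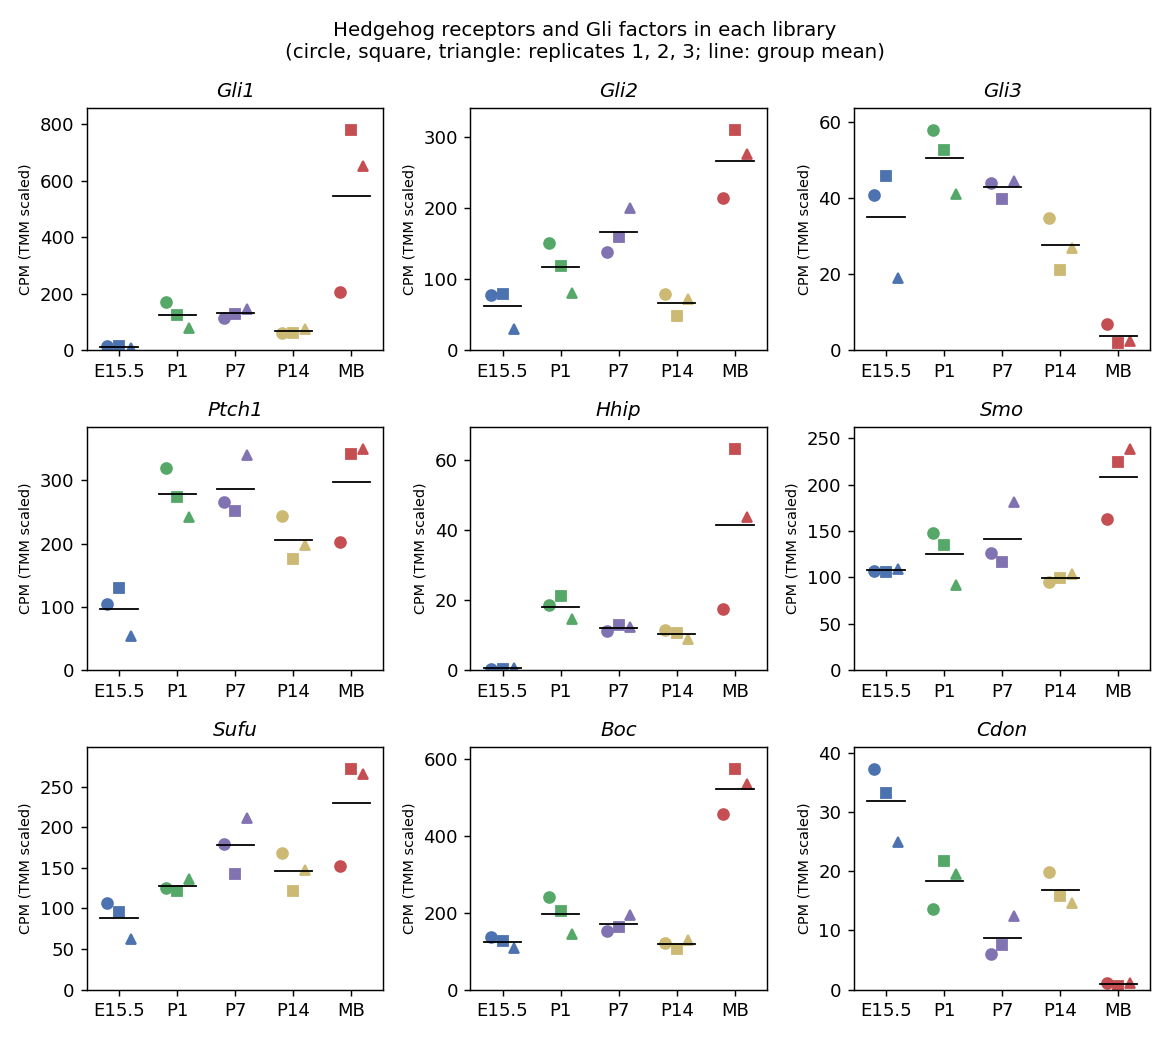
CPM (TMM scaled) of each of the 9 genes, 1 panel per gene, with the 5 groups on the horizontal axis; points are libraries (circle, square and triangle for replicates 1, 2 and 3) and lines are group means. Hhip and Gli1 were lowest at E15.5, Boc was highest in MB, and Gli3 and Cdon were lowest in MB; MB replicate 1 lies below the other tumours for Gli1, Hhip, Ptch1 and Sufu. Each panel has its own scale from 0.

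Between E15.5 and P1 the feedback genes of the pathway rose. Hhip, which encodes a membrane protein that binds hedgehog and takes it away from the receptor, rose most of the 9, by 36.2-fold. Gli1, the activator that is itself a target, rose 9.14-fold, and Ptch1 rose 2.90-fold. Gli2 and Boc rose less, and Cdon fell. Of the 9 genes, 5 were called higher and 1 lower, where 46.3% of all tested genes were called (25.4% higher and 20.9% lower). The median log2 change of the 9 was 0.67 against 0.03 over all tested genes.

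Hhip (ENSMUSG00000064325; mm9, chromosome 8, 82494244 to 82581905, minus strand, 13 exons) had 10, 4 and 24 counts in E15.5 replicates 1 to 3, or 0.436, 0.334 and 0.630 CPM. In the P1 libraries it was at 18.6, 21.2 and 14.6 CPM. Every P1 library was thus far above every E15.5 library, with a log2 change of 5.18 (SE 0.44, FDR 6.52e-07). The P7 libraries were at 11.2, 12.9 and 12.4 CPM and the P14 libraries at 11.5, 10.5 and 8.79 CPM, so the later ages stayed in a narrow band below P1. None of the steps after P1 was called for Hhip.

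Gli1 (ENSMUSG00000025407; mm9, chromosome 10, 126766945 to 126778645, minus strand, 13 exons) was at 16.0, 15.1 and 10.2 CPM at E15.5. At P1 its values were 170, 126 and 79.9 CPM, all above E15.5 but spread widely among themselves. P1 replicate 3, the lowest, had 3575 CPM of summed oligodendrocyte lineage markers, against 609 and 951 CPM in replicates 1 and 2. The log2 change was 3.19 (SE 0.40, FDR 2.26e-05). It stayed at 115, 130 and 147 CPM at P7 and was 61.9, 63.2 and 75.6 CPM at P14, where each library lay below each P1 and P7 library. That difference was not called against P7 (log2 -0.96, SE 0.37, FDR 0.106) or P1 (-0.91, SE 0.37, FDR 0.129). Gli1 shares 55 exon bases with exons of Arhgap9 on the other strand, and the strand setting of the counting is not stated.

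Ptch1 (ENSMUSG00000021466), the hedgehog receptor, was at 105, 129 and 53.9 CPM at E15.5 and at 319, 273 and 242 CPM at P1. The groups did not overlap, and the log2 change was 1.54 (SE 0.29, FDR 6.05e-04). It was 265, 252 and 340 CPM at P7 and 244, 175 and 198 CPM at P14. Ptch1 was called in neither P7 against P1 (0.04, FDR 0.958) nor P14 against P7 (-0.47, FDR 0.293). The calls of Hhip, Gli1 and Ptch1 at P1 held in each alternative run, with log2 changes of at least 4.40, 2.46 and 1.08. All 11 astroglial, all 9 oligodendrocyte lineage and all 6 endothelial markers were also called higher at P1 than at E15.5. So were all 7 pericyte, meningeal and fibroblast markers, all 5 choroid plexus markers and 7 of 8 microglial markers. Of 7 GABAergic interneuron markers, 5 were lower and 0 higher. Of 8 Purkinje cell markers 1 was lower and 3 higher, and of 9 granule lineage markers 1 and 1. The part of these marker changes in the rises of the 3 genes was not tested.

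The co-receptors moved apart. Boc (ENSMUSG00000022687; mm9, chromosome 16, 44485162 to 44559010), an immunoglobulin and fibronectin repeat protein that binds hedgehog alongside PTCH1, was at 138, 126 and 109 CPM at E15.5 and 241, 206 and 146 CPM at P1 (log2 change 0.67, SE 0.19, FDR 0.0098). Each P1 library was above each E15.5 library. Cdon (ENSMUSG00000038119; mm9, chromosome 9, 35259661 to 35315236), its close relative with the same role, was at 37.3, 33.2 and 25 CPM at E15.5 and 13.6, 21.8 and 19.6 CPM at P1. That fall, -0.79 on the log2 scale (SE 0.31, FDR 0.0462), lay just under the threshold and was lost in 14 of 25 alternatives. The Boc call was lost without E15.5 replicate 3 (0.54, FDR 0.0576) and without P1 replicate 1 (0.50, FDR 0.0599).

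Gli2, the main activator before Gli1 is made, was at 78.3, 78.8 and 30.8 CPM at E15.5 and 152, 119 and 81.3 CPM at P1 (0.91, SE 0.32, FDR 0.0315). E15.5 replicate 3 was low for Gli2, Gli3, Ptch1 and Sufu alike, and without it the Gli2 change was 0.54 and no longer called. The Gli2 call was also lost without P1 replicate 1 (0.68, FDR 0.13), without P1 replicate 2 (0.90, FDR 0.0699) and with only these groups fitted (0.92, FDR 0.0828). Gli3 and Smo did not pass the test at this step, at 0.53 (SE 0.39, FDR 0.285) and 0.22 (SE 0.21, FDR 0.406). Smo, the membrane protein that passes the signal on, was the steadiest of the 9 at E15.5, at 106 to 109 CPM. Sufu was at 63.0 to 107 CPM at E15.5 and 121 to 136 CPM at P1, without overlap, but its log2 change of 0.53 had an FDR of 0.0878.

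Between P1 and P7 no gene of the 9 was called, where 3.15% of tested genes were (1.40% higher and 1.74% lower). By edgeR only Cdon had an unadjusted p under 0.05, and DESeq2 called that 1 gene. Cdon was at 5.96, 7.62 and 12.4 CPM at P7, each below each P1 library (log2 change -1.09, SE 0.31, FDR 0.0671). From P7 to P14, 1 of the 9 was called, near the 10.3% of all tested genes (5.81% higher and 4.51% lower). That gene was Gli2, which went from 139, 160 and 201 CPM to 79.0, 48.9 and 72.1 CPM, a fall of 1.32 on the log2 scale (SE 0.33, FDR 0.0228) or 2.50-fold. Cdon instead had higher values at P14, at 19.9, 15.8 and 14.7 CPM, with a change of 0.96 that missed the threshold (FDR 0.0608). The Gli2 call was lost without P7 replicate 2 or 3 and without any 1 of the P14 libraries. The P7 group lies wholly in the low-Tsnax set and the P1 and P14 groups wholly in the high-Tsnax set, and with a term for the set the Gli2 change was larger, at -1.82, but missed the threshold (FDR 0.053), so that no gene of the 9 was called from P7 to P14.

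Over the whole postnatal span, P14 against P1, 8 of the 9 fitted changes were below 0 and the median was -0.73, against 0.01 over all tested genes. A single gene, Boc, was called (8.94% of tested genes were), with 121, 107 and 130 CPM at P14, lower by 1.66-fold (log2 -0.73, SE 0.19, FDR 0.0313). This call was lost without P1 replicate 1 or 2 and without any 1 of the P14 libraries. Gli1, Gli2, Gli3 and Hhip each had every P14 library below every P1 library and log2 changes of -0.91, -0.82, -0.87 and -0.82, none of them called. The share of all tested genes without overlap between these groups was not counted, so these separations cannot be set against it. MB replicate 1 takes no part in this contrast but enters the estimate of the spread. Without it 4 of the 9 were called lower (Boc, Gli1, Gli3 and Hhip). The share of all tested genes called in that fit is not given here, so the 4 cannot be set against it. In the test for any difference among the 4 ages, 7 of the 9 were called, beside 55.7% of tested genes, and Gli3 (FDR 0.236) and Smo (FDR 0.15) were not. In the contrasts of E15.5 with the later ages, 6 of the 9 were called at P7 (37.8% of all tested genes) and 5 at P14 (50.9%). Gli1 was 4.88-fold and Hhip 20.5-fold above E15.5 at P14.

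**Figure D2:**
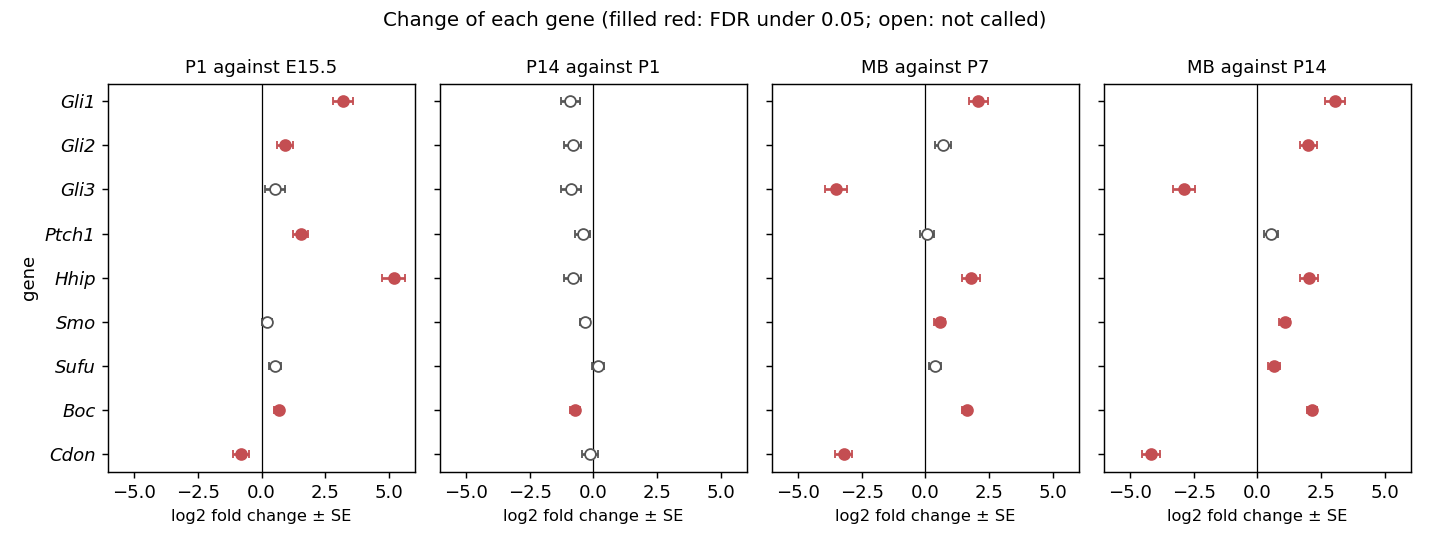
Log2 fold change of each gene (horizontal axis, error bars are ± 1 SE) in 4 comparisons, 1 panel each, with genes on the vertical axis; filled red points have an FDR under 0.05 and open points do not. At P14 against P1 only Boc is filled. Ptch1 is open in both tumour panels, and Gli3 and Cdon lie far to the left in both.

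In medulloblastoma the 9 genes moved in different directions against P7, an age at which many precursors still divide. Gli1, Hhip and Boc were 4.19-fold, 3.41-fold and 3.06-fold higher, and Gli3 and Cdon were 11.3-fold and 9.28-fold lower. Ptch1 did not pass the test, with a fold of 1.04. Of the 9 genes, 4 were called higher and 2 lower, where 34.5% of all tested genes were called (13.7% higher and 20.7% lower). The median log2 change was 0.56 for the 9 and 0.02 for all tested genes.

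Among the targets, Gli1 was at 208, 781 and 651 CPM in MB replicates 1 to 3, each above each precursor library. The log2 change against P7 was 2.07 (SE 0.38, FDR 6.16e-04). Hhip was at 17.5, 63.2 and 43.7 CPM (1.77, SE 0.35, FDR 0.00101). Replicate 1 was the low tumour for both genes, and its Hhip value lay inside the range of the P1 libraries. Without that library the changes were 2.46 for Gli1 and 2.13 for Hhip. MB replicate 1 is also the single tumour in the low-Tsnax set with P7, and inside that set the changes were only 0.66 for Gli1 and 0.52 for Hhip. In the fit of the 15 libraries with a term for the set, Hhip was at 0.97 and was not called (FDR 0.0825). The Gli1 call was kept in that fit.

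Ptch1 was at 202, 341 and 349 CPM in MB, over the P7 range of 252 to 340 CPM on both sides, and its log2 change was 0.06 (SE 0.28, FDR 0.902). Against P1 it was 0.10 (FDR 0.81) and against P14 0.53 (SE 0.28, FDR 0.132); without MB replicate 1 the P14 contrast was called at 0.75 (FDR 0.0381). The labels do not say which part of Ptch1 is altered in the heterozygous mice, so reads over the whole gene do not check the genotype label.

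Boc was high in each of the 3 tumours. It was at 458, 575 and 535 CPM in MB and at 154, 164 and 195 CPM at P7, a change of 1.61 (SE 0.19, FDR 1.37e-05). Cdon showed the opposite: 1.19, 0.562 and 1.08 CPM in MB, from 30, 23 and 27 counts, with a change of -3.21 (SE 0.35, FDR 5.82e-06). Both co-receptors were called against P7, P1 and P14 in each of the 25 alternatives. Inside the low-Tsnax set, where MB replicate 1 alone stands for the tumours, Boc was at 1.42 (FDR 7.19e-04) and Cdon at -2.86 (FDR 0.00135).

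Gli3 (ENSMUSG00000021318; mm9, chromosome 13, 15555813 to 15821859, plus strand, 15 exons), the main repressor of the family, was at 44.1, 39.7 and 44.6 CPM at P7 and at 6.94, 1.93 and 2.60 CPM in MB. Every tumour library lay below every precursor library, the lowest of which was at 18.9 CPM. The change was -3.50 (SE 0.44, FDR 1.95e-05), and without MB replicate 1 it was -4.25. Inside the low-Tsnax set, with MB replicate 1 as the single tumour and its spread assumed to be that of the other groups, it was -2.63 (FDR 6.27e-04). Most marker lists moved in the same contrast. Called lower in MB than at P7 were 6 of 6 endothelial markers, 7 of 7 pericyte, meningeal and fibroblast markers, 6 of 7 GABAergic interneuron markers and 6 of 8 Purkinje cell markers, with 1 Purkinje marker higher. Of 11 astroglial markers 7 were lower and 2 higher, of 9 oligodendrocyte lineage markers 5 and 2, and of 9 granule lineage markers 4 and 2. Of 5 choroid plexus markers 1 was lower, and of 8 microglial markers 4 were higher. Their part in the changes of the 9 genes was not tested.

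Gli2 (ENSMUSG00000048402; mm9, chromosome 1, 120730709 to 120950196) was at 214, 311 and 276 CPM in MB, each library above each P7 library, but its change of 0.68 (SE 0.32) had an FDR of 0.118. Smo (ENSMUSG00000001761; mm9, chromosome 6, 29685694 to 29711365) was at 163, 224 and 238 CPM in MB against 126, 116 and 181 CPM at P7. The groups overlapped, and its change of 0.56 (SE 0.21, FDR 0.0489) lay at the threshold and was lost in 16 of 24 alternatives. Sufu (ENSMUSG00000025231; mm9, chromosome 19, 46471386 to 46563294) was at 152, 272 and 266 CPM in MB against 179, 143 and 212 CPM at P7 and was not called (0.37, SE 0.24, FDR 0.264). Replicate 1 was again the lowest tumour for all 3 of these genes.

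Against the other ages more of the genes were called. Against P1, 6 of the 9 were higher and 2 lower (38.7% of tested genes called), and against P14 the counts were again 6 and 2 (50.0%). In both, Ptch1 was the gene that was not called. The Hhip and Smo calls against P1 were lost without P1 replicate 3 and with only these groups fitted. Those of Hhip and Sufu against P1 were lost without MB replicate 2. The Sufu call against P14 was lost in 7 of 25 alternatives. The highest fold against P14 was that of Gli1, at 8.17-fold (log2 3.03, FDR 1.91e-05), followed by Boc at 4.38-fold, Hhip at 4.04-fold and Gli2 at 4.01-fold. Cdon was 18.1-fold and Gli3 7.28-fold lower than at P14. Against E15.5 all 9 were called, 7 of them higher and 2 lower, beside 50.1% of tested genes (26.0% higher and 24.2% lower), with Hhip 82.9-fold higher and Cdon 34.2-fold lower. The comparisons with P1, P7, P14 and E15.5 share the 3 MB libraries. P1 replicates 2 and 3 carried more of the late granule marker Gabra6 (12.5 and 102 CPM) and of choroid plexus markers than replicate 1, and both were left out in an alternative chosen after seeing the data. The P1 group is then 1 library, assumed to vary like the other groups. Of the 8 genes, Boc, Gli3 and Cdon were still called, and Gli1 (1.69), Hhip (1.16), Sufu (0.88), Gli2 (0.81) and Smo (0.50) kept their direction but were not called.

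The balance among the 3 Gli factors was read per exon length, as counts per kilobase, so that the genes can be set beside each other. At E15.5 Gli2 held 52.8% ± 4.43 of the summed Gli signal (SD, n = 3), Gli1 22.8% ± 5.08 and Gli3 24.4% ± 1.37. At P7 Gli1 held 52.9% to 54.9%, Gli2 36.3% to 39.9% and Gli3 7.21% to 9.34%. P1 and P14 were close to P7, with Gli1 at 55.8% to 60.7% and 51.1% to 63.5%. In MB Gli1 held 63.1%, 81.9% and 80.9%, and Gli3 only 0.947%, 0.0908% and 0.145%. The share of Gli3 in each tumour was thus below that in each precursor library, while the Gli1 share of MB replicate 1 lay inside the P14 range. The log2 ratio of Gli1 over Gli3 per length ran from -0.45 to 0.27 at E15.5 and from 2.54 to 2.87 at P7, and was 6.06, 9.82 and 9.12 in MB. The order of Gli1 and Gli2 at P7 depends on the length correction: the log2 ratio was 0.40 to 0.58 per length and -0.45 to -0.27 in CPM.

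**Figure D3:**
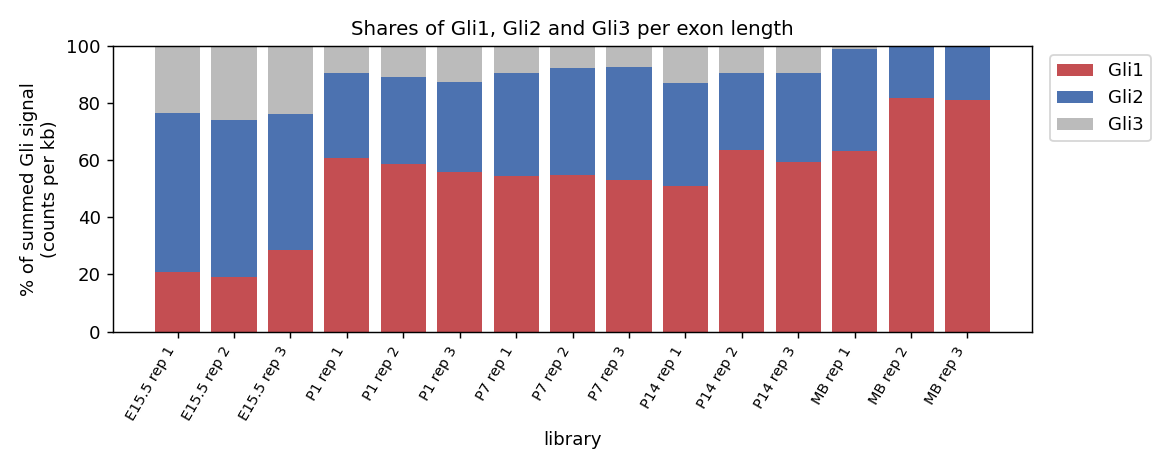
Share of Gli1, Gli2 and Gli3 in their summed counts per kilobase of exon (vertical axis, percent), 1 stacked bar per library. Gli2 has the largest share in the 3 E15.5 libraries and Gli1 in the other 12; the Gli3 share is at most 0.947% in MB.

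Per length, the receptors and transducers of the P7 precursors lay within a narrow range and the co-receptor Cdon far below them. The levels, in CPM per kilobase of exon, were 38.3 to 51.7 for Ptch1, 34.6 to 43.8 for Boc, 31.5 to 46.8 for Sufu, 31.4 to 40.0 for Gli1 and 30.6 to 48.0 for Smo. These 5 overlapped. Gli2 followed at 20.9 to 30.2, then Gli3 at 4.86 to 5.46, Hhip at 2.45 to 2.81 and Cdon at 0.827 to 1.71. At E15.5 the order differed: Boc (24.5 to 30.9) and Smo (28.0 to 28.7) were at the top, and Cdon (3.46 to 5.17) overlapped Gli1 (2.78 to 4.37) and lay above Hhip (0.0729 to 0.138). In MB Gli1 (56.7, 213 and 178) and Boc (103, 129 and 120) led, and Cdon was at 0.0779 to 0.165.

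Ordered by group mean CPM, several neighbours did not differ by the test. Gli1 ran E15.5 (13.8), P14 (66.9), P1 (125), P7 (130), MB (547), with a called difference at the first and the last step. For Ptch1 only E15.5 (95.9 ± 38.3, SD, n = 3) stood below its neighbour P14 (205 ± 35.1). Gli3 stood apart only in MB (3.82 ± 2.72, with P14 next at 27.6 ± 6.98), and Boc only in MB (523 ± 59.0, with P1 next at 198 ± 48.1). Gli2 and Sufu had no called step between neighbours, from 62.6 to 267 CPM and from 88.4 to 230 CPM. For Smo the single called step was the last, from P7 (141) to MB (208). Hhip had called steps from E15.5 (0.467) to P14 (10.3) and from P1 (18.1) to MB (41.5), and Cdon from MB (0.944) to P7 (8.65) and from P1 (18.4) to E15.5 (31.8).

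The transcript table separates parts of Ptch1, which lies on the minus strand of chromosome 13 (mm9). The full coding model of 23 exons runs from 63612841 to 63666828. A short model at the 5′ end comes in a proximal and a distal form that differ in their start, and a 3′ model covers the last exons. Reads over the proximal 5′ model were 14.8% to 19.6% of those over the coding model in the 12 precursor libraries. In MB replicate 1 the value was 17.3% (95% Wilson interval 16.1% to 18.7%), inside that range. MB replicates 2 and 3 were at 12% (11.3% to 12.6%) and 11.9% (11.1% to 12.8%), below every precursor library. The intervals cover counting error only, since a read can count for several models and reads are not independent molecules.

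The distal form of Ptch1 had 75 and 35 reads more than the proximal form in MB replicates 2 and 3, and 7 more in MB replicate 1. In the precursors the difference lay between -1 and 15 reads, with the highest value in P1 replicate 1. Reads over the 3′ model were 49.7% to 59.9% of those over the coding model at P7, 63.1% to 65.6% at P14 and 66.5% to 75.1% in MB. At E15.5 they were 57.5% to 74.1%, so that the E15.5 range covers much of the others.

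**Figure D4:**
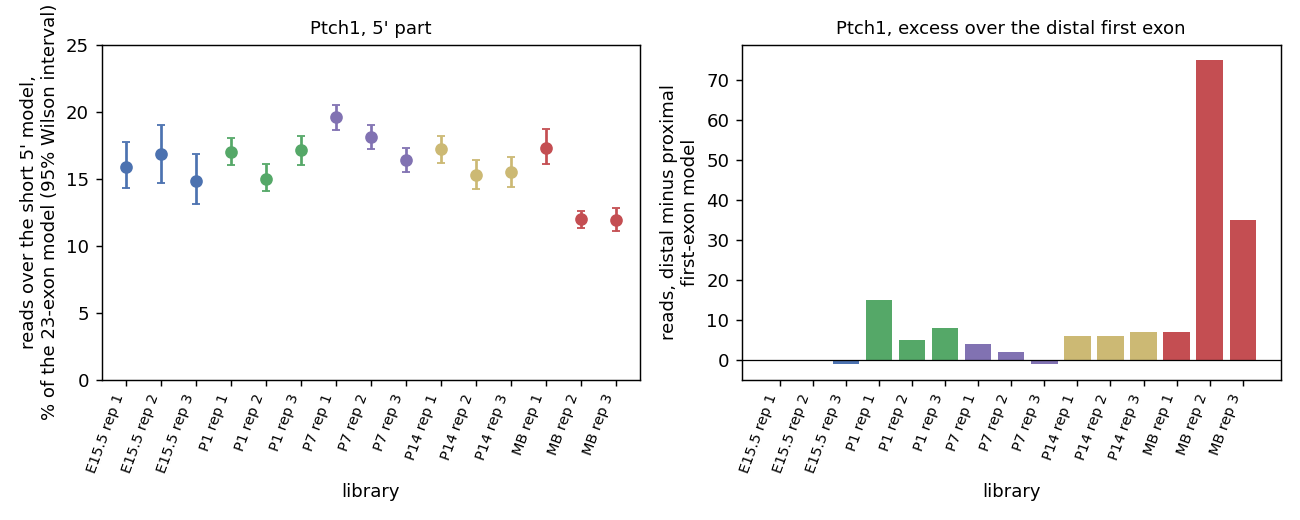
Left: reads over the proximal short 5′ model of Ptch1 as a percent of those over its 23-exon coding model, per library, with 95% Wilson intervals. Right: reads over the distal minus reads over the proximal first-exon model, per library. MB replicates 2 and 3 are lowest on the left, at 12% and 11.9%, and highest on the right, at 75 and 35 reads; MB replicate 1 is at 17.3% and 7 reads.

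For Cdon, reads over its model in the start-site table made up 64.7% to 74.6% of the gene count at E15.5, 78.3% to 83.7% at P1, 76.4% to 83.8% at P7 and 80.9% to 84.7% at P14. In MB the shares were 73.3%, 91.3% and 92.6%, but they rest on 22 of 30, 21 of 23 and 25 of 27 reads. Their 95% Wilson intervals, 55.6% to 85.8%, 73.2% to 97.6% and 76.6% to 97.9%, overlap each other and those of the postnatal precursors.

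Other genes of the pathway were read from 4 lists of 50 genes in all, 48 of them tested. Of 11 targets and downstream genes of the precursor programme, 7 were called higher and 1 lower in MB than at P7 (median log2 1.19; 13.7% of all tested genes were called higher and 20.7% lower). At P14 against P1, 1 was higher and 4 lower (median -0.64; 3.63% of all tested genes were called higher and 5.31% lower). Atoh1, the factor that keeps precursors dividing, was at 23.6, 39.1 and 29.2 CPM at P7 and 322, 282 and 236 CPM in MB (3.19, FDR 1.28e-06). Ccnd1 (cyclin D1) was at 448, 1223 and 1154 CPM in MB against 197, 209 and 305 at P7 (1.99, FDR 4.28e-04), and Mycn rose by 1.21 (FDR 6.78e-04). The Ccnd1 change was not called with MB replicate 1 as the single tumour inside the low-Tsnax set (0.91, FDR 0.0566). Cdk6, which pairs with D cyclins, rose most, by 3.33 (FDR 1.28e-05), and the growth factor gene Igf2 fell by 4.43 on the log2 scale (FDR 1.02e-07). At P14 against P1, Atoh1, Ccnd1 and Mycn were lower, with log2 changes of -2.00, -1.70 and -1.05 (FDR 0.00151, 0.012 and 0.0143), while Sfrp1, a secreted Wnt antagonist, was 0.71 higher (FDR 0.041). The calls of Ccnd1, Mycn and Sfrp1 at P14 were each lost when single libraries were left out, among them P1 replicate 1.

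Among 6 other receptors and co-receptors, 3 were lower in MB than at P7, where 20.7% of all tested genes were. The number called higher is not reported here. With RLE scaling, with no filter and in the transcript table, 2 were lower. Gas1, a co-receptor that acts beside BOC and CDON, was at 38.6, 152 and 134 CPM in MB against 55.2, 39.5 and 54.4 CPM at P7 (1.12, FDR 0.0245). MB replicate 1 lay below the P7 range, and inside the low-Tsnax set the change was -0.37 and not called. Without that library it was 1.53. The Gas1 call was also lost without P7 replicate 2 and without MB replicate 2 or 3. The glypican gene Gpc4 fell by 3.07 on the log2 scale (FDR 1.92e-06), with 6.15, 3.08 and 4.04 CPM in MB. At P14 against P1, 2 of these 6 were lower and 0 higher, beside 5.31% and 3.63% of all tested genes, and the largest fall was that of Lrp2, an endocytic receptor, at -3.28 (FDR 0.00101).

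Ligand transcripts were scarce. Shh was at 0.829 to 2.52 CPM at P1, 0.717 to 2.51 CPM at P7 and 0 to 0.0977 CPM in MB (-4.68 against P7, FDR 1.69e-04). Of 7 tested ligand and release genes, 3 were lower and 0 higher in MB than at P7, where 20.7% of all tested genes were lower and 13.7% higher. Scube1, whose product helps release secreted ligand, went from 22.7, 26.9 and 30.1 CPM to 0.119, 0.366 and 0.280 CPM (-6.62, FDR 3.84e-08). At P14 against P1, 2 were lower (5.31% of all tested genes), with Scube2 falling by 3.01 on the log2 scale (FDR 0.00289) and Shh by 2.19 (FDR 0.0351); the Shh call was lost without P1 replicate 1 or 2 and without any 1 of the P14 libraries. Summed Purkinje cell markers, whose cells make Shh, were at 326 to 481 CPM at P1, 367 to 1001 CPM at P7, 330 to 493 CPM at P14 and 131 to 254 CPM in MB, and their part in the Shh values was not tested.

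Most transducers between SMO and the GLI proteins were not called. Of 24 tested, 3 were higher and 2 lower in MB than at P7, beside 13.7% and 20.7% of all tested genes. At P14 against P1, 1 was higher and 0 lower, beside 3.63% and 5.31% of all tested genes. That was the kinase gene Grk2 (0.93, FDR 0.0073), a call lost without P1 replicate 1 or 2. Kif7, a kinesin gene of the cilium, was at 19.3, 23.5 and 23.8 CPM in MB against 14.9, 8.91 and 11.7 CPM at P7 (0.90, FDR 0.0169). This call was lost without P7 replicate 2, inside the low-Tsnax set and with a term for the set. Inside the low-Tsnax set, with MB replicate 1 as the single tumour, the change was 0.69. Efcab7, a ciliary scaffold gene, rose by 1.23 (FDR 0.00216), and Arrb1 (beta-arrestin 1) fell by 0.93 on the log2 scale (FDR 0.00211).

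The genes most like each member were found by Pearson's r of log2 CPM over the 15 libraries, among 11575 other genes, and are given as a description. These libraries share age and tumour status, so a high r need not come from more than 1 contrast. Gli1 was most like Angptl2 (0.984), Adamts14 (0.979) and Rccd1 (0.972), and Ptch1 most like Znrf3 (0.96), Grid2ip (0.948) and Gas2l3 (0.946). Gli2 was nearest to the mitotic genes Troap (0.96) and Foxm1 (0.958) and to E2f8 (0.956), and Smo to Aurkb (0.961), Mybl2 (0.956) and Cdt1 (0.944), which serve replication and division as well. Cdon was nearest to Lef1 (0.978), Kif26a (0.975) and Rapgef5 (0.967), and Gli3 to Igf2r (0.962), Sv2c (0.958) and Trhde (0.957). Boc was nearest to Lrig3 (0.982), Pidd1 (0.974) and Ipo8 (0.974), and Sufu to Celsr2 (0.982), Insm1 and Pitpnm2 (both 0.971). Hhip was nearest to Rps18 (0.977), a ribosomal gene with processed copies that can share its reads, and then to Lfng (0.967) and Rassf3 (0.962).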

How the data were processed

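Poly(A) RNA-seq was analysed from 15 mouse cerebellar libraries, 3 per group, grouped by the labels. Per the submitters' processing notes, the tools were Trimmomatic, TopHat, StringTie and HTSeq and the build was mm9, without versions or order; the strand setting is not given in the sources used here. The authors deposited raw read counts per gene, per start-site model and per transcript for each library. Gene counts were the main values; 39.5% to 55.4% of records were counted in genes, and the lines that name no gene (such as the 14.1% to 29.2% in no feature) were left out. Symbols matched 20358 of 21889 genes.

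Genes were filtered with filterByExpr (minimum count 10, minimum total count 15) and scaled with TMM. A model with 1 mean for each group took in the 15 libraries together (10 residual degrees of freedom) with the quasi-likelihood test of edgeR 4.0.16 in R 4.3.3; genes were called at an FDR under 0.05. The computed CPM are counts relative to the TMM-scaled library size. Levels per length divide by exon bases of the transcript models. Correlations were taken on log2 CPM (prior count 2), over genes of at least 5 CPM on average. Intervals are 95% Wilson intervals. The steps were tested on simulated data.

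All 9 genes are named throughout. Of the pathway lists, Shh, Gas1, Kif7, Mycn, Ccnd1 and Atoh1 are named in any case, with the called gene of the largest rise and fall of each list at P14 against P1 and MB against P7. The likeness rule names 3 genes per member. The genes, lists and rules were chosen with earlier results of these data known. Disp1 and Gsk3a were not analysed here, and 1 result on a listed gene is not reported here. Alternatives were DESeq2 1.42.0, RLE scaling, no filter, the compared groups alone, the replicate number as a block, the other tables, the Tsnax sets and leaving out each library.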

Additional observations from a re-analysis of the deposited data

How the results depend on the processing

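The number of the 9 genes called moved by over 1.5 times as follows. For P1 against E15.5 the count was 6, and it was 3 inside the high-Tsnax set and 3 with a term for the set (Boc, Cdon and Gli2 lost). Boc stayed at 0.65 and 0.57 and Cdon at -0.85 and -0.68, and Gli2 was 0.58 and 0.60; the within-set fit has 1 E15.5 library. For P7 against P1 it was 0, and 1 with DESeq2. For P14 against P7 it was 1, against 2 with DESeq2, 5 with only these groups fitted and 0 with the set term. For P14 against P1 it was 1, against 5 with only these groups fitted and 4 inside the high-Tsnax set. MB against P7 gave 6, and 3 inside the low-Tsnax set; MB against P1 gave 8, and 3 without P1 replicates 2 and 3, which leaves 1 P1 library and was chosen after seeing the data. The cause was not tested, beyond the fewer libraries of the within-set and left-out settings. Shares of all tested genes called are given for the main fit only. A moved count of the 9 can therefore not be told apart from a change in calls over all genes. Leaving out 1 library at a time gave 3 to 7 (P1 against E15.5), 0 to 1 (P7 against P1), 0 to 3 (P14 against P7), 0 to 4 (P14 against P1), 5 to 7 (MB against P7), 6 to 8 (MB against P1), 7 to 9 (MB against P14) and 6 to 7 (the 4 ages).

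Over the 9 genes in the 7 comparisons run under the alternatives, and the named pathway genes in P14 against P1 and MB against P7, directions of called changes held except for Gas1 in MB against P7 inside the low-Tsnax set (-0.37) and the Gli1 over Gli2 log2 ratio at P7, -0.34 as a ratio of CPM. Deviations from the group means had r from -0.312 to 0.332 between same-numbered libraries (30 pairs, median -0.0128). Between libraries of different number r ran from -0.484 to 0.465 (60 pairs, median 0.00595). These values gave no sign that the numbers are a pairing, but cannot exclude it for some of the groups. With the replicate block the counts were 5, 0, 1, 1, 5, 8, 7 and 7 in the order above, with Cdon (P1 against E15.5), Smo (MB against P7) and Sufu (MB against P14) lost. The start-site table holds 6 of the 9 genes, so no count was made from it. Depth limits Hhip at E15.5 and Cdon in MB most, since their counts were lowest.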

Other observations

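Between the 9 genes themselves, over the 15 libraries, Gli1 and Hhip had a Pearson's r of 0.94 in log2 CPM, Gli1 and Ptch1 0.87, and Hhip and Ptch1 0.87. High values were not limited to these targets. With Sufu, r was 0.88 for Gli1, 0.85 for Ptch1 and 0.78 for Hhip. With Gli2 it was 0.87, 0.80 and 0.68 in the same order. Smo and Boc stood at 0.91. Gli3 and Cdon, the genes that were low in MB, stood at 0.86. Boc and Cdon, which encode related co-receptors, stood at -0.90, and Gli1 and Cdon at -0.84. These values are descriptions: the libraries of a group share age and tissue, and the points were not independent of the contrasts given for the same genes.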
